A study of Homo sapiens with 6 samples.

Results

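The miRNAs described here are those of 4 human stem-loops linked to inflammatory signalling, mir-155, mir-147b, mir-146b and mir-146a, in the breast cancer cell line MDA-MB-231. They were chosen by name, and every mature sequence listed under these stem-loops was taken from either arm, which gave 5 of the 436 mature sequences with reads. The parental group (3 samples) was grown as an adherent monolayer in RPMI medium with serum, and the spheroid group (3 samples) was grown in suspension in serum-free medium, so that culture dimension and serum cannot be told apart. Both groups come from the same triple-negative line, and no further treatment or genetic change is named for either. The small RNA was sequenced as TruSeq libraries and counted into 1 table per group, and all values below are reads of these 2 tables.

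A miRNA is cut from a hairpin precursor, whose arms give a 5p and a 3p mature strand, and it represses messenger RNAs that pair with its seed, the bases 2 to 8 from its 5′ end. In macrophages, mir-155 and mir-146a are induced through NF-kB after Toll-like receptor signals. miR-155 targets SOCS1, an inhibitor of cytokine signalling. In contrast, miR-146a targets TRAF6 and IRAK1, signalling proteins downstream of the same Toll-like receptors, and so acts as a brake. miR-147, a relative of miR-147b in the mouse, is also induced by Toll-like receptors in macrophages.

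The sequences are shown because the seeds set which of the miRNAs can share targets. They are given as deposited, 5′ to 3′ in DNA letters, with bases 2 to 8 in capitals.
miR-155-5p: tTAATGCTaatcgtgataggggt
miR-155-3p: cTCCTACAtattagcattaaca
miR-147b-3p: gTGTGCGGaaatgcttctgcta
miR-146b-5p: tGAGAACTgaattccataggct
miR-146a-5p: tGAGAACTgaattccatgggtt
miR-146a-5p and miR-146b-5p shared the seed and differed at 2 positions near the 3′ end, G18A and T21C, counted from 1 at the 5′ end with the base of miR-146a-5p first. No other listed sequence had the same bases 2 to 8 as any of the 5. The mature forms in RefSeq (build GRCh38.p14) were equal for miR-146a-5p and miR-155-3p. They were 1 base longer at the 3′ end for miR-155-5p and miR-146b-5p, and 1 base shorter for miR-147b-3p.

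The genes lie on 4 chromosomes, each on the plus strand (GRCh37). miR-155-5p lies at chr21:26946295-26946317 and miR-155-3p at chr21:26946334-26946355, in an exon of MIR155HG, the long noncoding host transcript. miR-147b-3p lies at chr15:45725296-45725317, in an exon and untranslated region of the protein-coding gene C15orf48, and also in an intron of a noncoding gene on the minus strand. miR-146b-5p lies at chr10:104196277-104196298, where its own MIR146B is the only annotated gene. miR-146a-5p lies at chr5:159912379-159912400, in an exon of the long noncoding RNA MIR3142HG.

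The tables hold 539798 parental and 1553014 spheroid reads, and levels are given as reads per 1000000 of these totals (rpm). There is no column per sample, so no replicate error could be had. In the sample descriptions, the 3 samples of a group name the same table, whereas the study's sample sheet lists it at replicate 1 alone. Whether samples were pooled is not stated, so a table may hold 1 library, and each level and fold may compare 1 library with 1 library. All intervals are 95% intervals and cover counting error only, since reads amplified by PCR without molecular identifiers are not independent molecules. Kal's Z-test compares the reads of the 2 tables and not the cultures, and a sequence was called at a Benjamini-Hochberg adjusted p under 0.05 with a fold over 2. By this rule 21 of 436 sequences (4.82%) were higher and 39 (8.94%) were lower in spheroid cells, which became 28 and 30 with TMM factors and 29 and 28 with median-of-ratios factors. The median log2 fold of the 369 sequences with a fold was -0.20.

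Of the 5 sequences, 1 was called, miR-147b-3p, which was lower in spheroid cells, and none was called higher. miR-155-5p held most of their reads and was not called, and both miR-146 sequences were low. The 5 together had 895 parental and 2760 spheroid reads, which is 0.166% and 0.178% of the tables. Of these reads miR-155-5p took 90.7% in parental and 95.5% in spheroid cells.

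**Figure D1:**
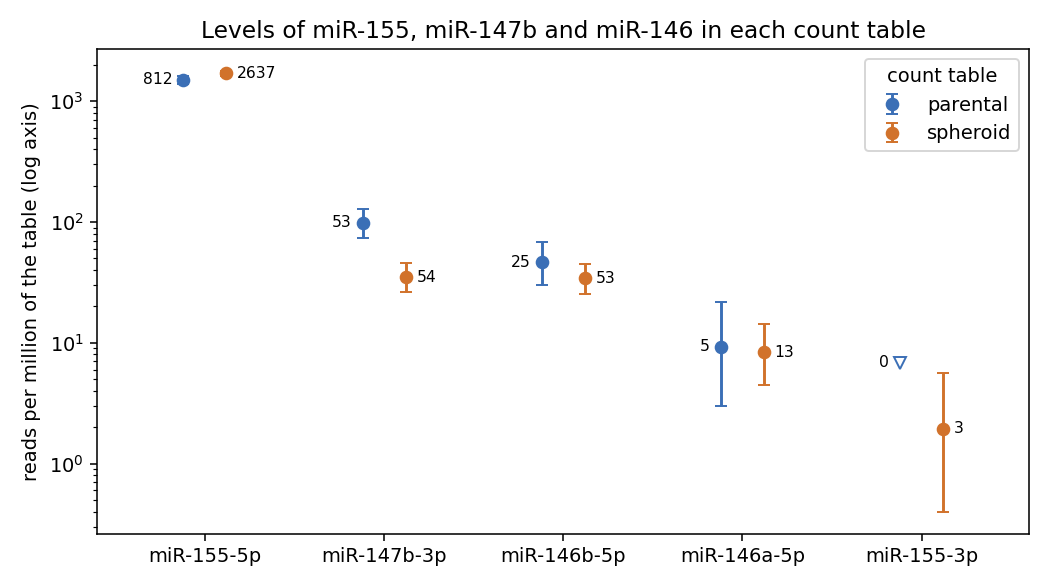
Level of each sequence in rpm of the table total (log axis) in the parental and the spheroid table, with exact 95% intervals for counting error. miR-155-5p stands highest, at 1504 and 1698 rpm, and the intervals of miR-147b-3p at 98.2 and 34.8 rpm do not overlap.

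miR-155-5p, the main strand of mir-155, had 812 parental and 2637 spheroid reads. This is a parental level of 1504 rpm (1403 to 1611) and a spheroid level of 1698 rpm (1634 to 1764), the 60th and 58th highest level of the tables. The intervals do not overlap, but the difference was small. The fold of spheroid over parental was 1.13 (1.04 to 1.22), with an adjusted p of 0.00769 by Kal's Z-test, and it did not reach the fold of 2. It was 1.26 with TMM factors, 1.30 with median-of-ratios factors and 1.63 (1.35 to 1.99) with exact reads alone, each without a call. With the study's total reads as the scale the fold was 2.50 and miR-155-5p was called higher, but the parental total may include reads that were not counted into the table.

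miR-155-3p, the other strand of the same hairpin, had 0 parental and 3 spheroid reads. With a floor of 3 reads, a count of 0 allows up to 5.56 rpm in the parental table. The spheroid level was 1.93 rpm (0.398 to 5.65), so no fold was computed. The 3p share of mir-155 reads was 0 of 812 in parental cells, which at this floor allows up to 0.369%. In spheroid cells it was 0.114% (0.0234 to 0.332). A difference in strand use was not detectable at this depth (Fisher's exact test, adjusted p = 1), where 18 of 104 stem-loops (17.3%) changed. Among these 104 stem-loops the median share of the minor arm in spheroid cells was 2.44%, and 13 had a smaller share than mir-155.

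miR-147b-3p had 53 parental and 54 spheroid reads, a nearly equal number although the spheroid table is 2.88 times as deep. Its level was 98.2 rpm (73.5 to 128) in the parental table and 34.8 rpm (26.1 to 45.4) in the spheroid table, and its place in the order of levels went from 151 to 194. The intervals are far apart. The fold was 0.354 (0.238 to 0.527), a log2 fold of -1.50, with an adjusted p of 1.01e-07 by Kal's Z-test. Among the 183 sequences with at least 100 reads, 3 had a fold at or below this value, itself included. The call was lost when an assumed variation between cultures was added, with an adjusted p of 0.0604 by edgeR at a coefficient of variation of 0.2, and also when the study's total reads were used as the scale (fold 0.783). That scale may not match the tables, since the study lists many more parental miRBase reads than the parental table holds, while the spheroid numbers are close.

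miR-146b-5p had 25 parental and 53 spheroid reads, or 46.3 rpm (30.0 to 68.4) and 34.1 rpm (25.6 to 44.6). The intervals overlap widely. The fold was 0.737 (0.450 to 1.24), with an adjusted p of 0.380 by Kal's Z-test and no call.

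miR-146a-5p had 5 parental and 13 spheroid reads, or 9.26 rpm (3.01 to 21.6) and 8.37 rpm (4.46 to 14.3). At this depth the fold of 0.904 (0.302 to 3.24; adjusted p = 0.891 by Kal's Z-test) shows no direction. The study's total reads as the scale gave folds above 1 for both miR-146 sequences, and TMM and median-of-ratios factors did so for miR-146a-5p.

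**Figure D2:**
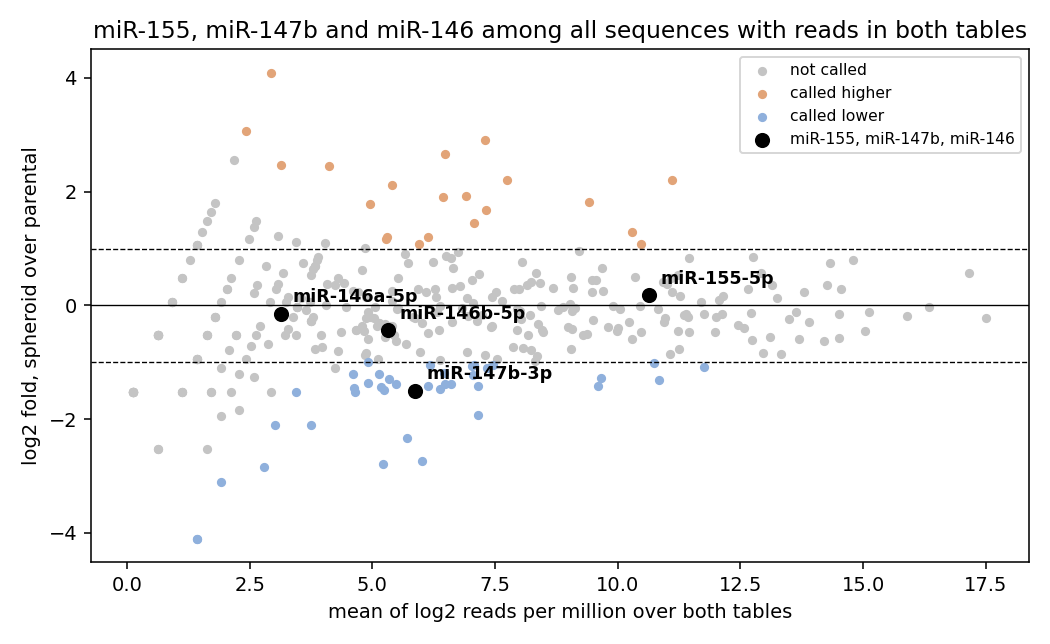
Log2 fold of spheroid over parental against mean level (rpm, log axis) for all sequences with reads in both tables, with the sequences of mir-155, mir-147b and mir-146 marked. miR-147b-3p lies at -1.50, below the lower fold threshold, and the others lie between the thresholds.

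The ratios of reads between these miRNAs do not depend on how a table is scaled. miR-155-5p had 15.3 (11.6 to 20.6) reads per read of miR-147b-3p in parental cells and 48.8 (37.3 to 65.2) in spheroid cells. The ratio was thus 3.19 (2.12 to 4.78) times higher in spheroid cells, the clearest shift of the 6 pairs compared. With exact reads alone it was 6.16 (3.22 to 11.9) times higher. For miR-147b-3p against miR-146b-5p, the ratio went from 2.12 (1.29 to 3.56) to 1.02 (0.684 to 1.52), which is 0.481 (0.249 to 0.920) times the parental ratio. With unique reads alone it was 0.509 (0.258 to 0.997) times, an interval that comes close to an equal ratio. The intervals were not adjusted for the number of pairs.

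The other 4 pairs had intervals that include an equal ratio in both tables. miR-155-5p per miR-146b-5p read changed 1.53 times (0.906 to 2.53), and miR-155-5p per miR-146a-5p read changed 1.25 times (0.348 to 3.75). miR-147b-3p per miR-146a-5p read changed 0.392 times (0.103 to 1.28). Within the miR-146 seed family, miR-146b-5p had 5 reads per miR-146a-5p read (1.88 to 16.7) in the parental table and 4.08 (2.19 to 8.15) in the spheroid table, so that miR-146b-5p was the more abundant form in both tables. The pairs with miR-146a-5p moved most when unique reads alone were counted. The change was then 2.17 times (0.448 to 9.15) for miR-155-5p and 0.679 times (0.134 to 3.06) for miR-147b-3p. For miR-146b-5p per miR-146a-5p read it turned from 0.815 (0.205 to 2.79) to 1.33 times (0.25 to 6.26), and all these intervals include 1.

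**Figure D3:**
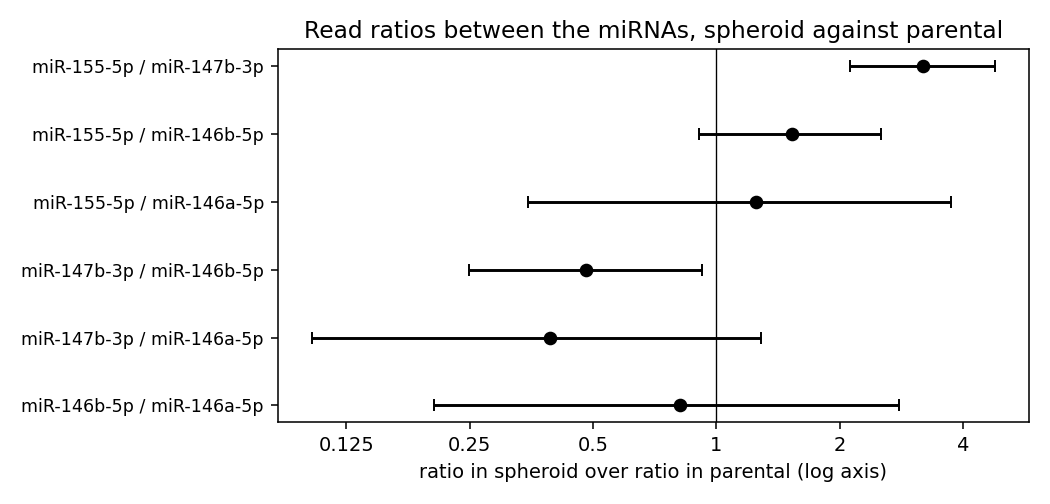
Ratio of reads between each pair of sequences in spheroid cells divided by the same ratio in parental cells (log axis), with exact 95% intervals. The interval of miR-155-5p over miR-147b-3p (3.19) lies clear of 1. That of miR-147b-3p over miR-146b-5p (0.481) excludes it with an upper bound of 0.920, and those of the other 4 pairs include it.

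The tables also count the reads that equal the listed mature sequence exactly, the remainder being length and sequence variants. For miR-155-5p, 131 of 812 parental reads were exact, or 16.1% (13.7 to 18.8), against 576 of 2637 spheroid reads, or 21.8% (20.3 to 23.5). The exact share was thus 5.71 percentage points higher in spheroid cells (Fisher's exact test, adjusted p = 0.00276). Of the 210 sequences with at least 20 reads in each table, 17 (8.1%) had a higher and 29 (13.8%) a lower exact share. The median exact share of these sequences was 35.1% in parental and 30.9% in spheroid cells, above that of miR-155-5p in both tables.

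For miR-147b-3p, 28 of 53 parental reads were exact, or 52.8% (38.6 to 66.7), and 20 of 54 spheroid reads, or 37% (24.3 to 51.3). The difference of -15.8 points did not pass (Fisher's exact test, adjusted p = 0.369). Neither miR-146 sequence had an exact read. The 25 parental and 53 spheroid reads of miR-146b-5p allow an exact share of up to 12% and 5.66%. Those for the 5 and 13 reads of miR-146a-5p reach up to 52.2% and 24.7%. Of the 196 sequences with at least as many reads as miR-146b-5p, 13 (6.63%) had no exact read, itself included, and of the 279 with at least as many as miR-146a-5p, 36 (12.9%) had none. Thus all reads of the miR-146 family were variants of the deposited sequences, and its counts rest on the rules by which variants were assigned.

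Reads counted as unique are read here as fitting 1 stem-loop alone. For example, miR-9-5p, listed under several stem-loops with the same mature sequence, had 0 unique among 1561 parental reads. All reads of miR-155-5p and miR-147b-3p were unique in both tables, whereas some reads of the near-identical miR-146 sequences were not. For miR-146b-5p, 23 of 25 parental reads were unique, or 92% (74.0 to 99.0), and 46 of 53 spheroid reads, or 86.8% (74.7 to 94.5), with an adjusted p of 1 by Fisher's exact test. For miR-146a-5p, 4 of 5 parental and 6 of 13 spheroid reads were unique, the latter 46.2% (19.2 to 74.9). In the same test across the 210 sequences, 5 (2.38%) had a higher and 2 (0.952%) a lower unique share in spheroid cells. Which sequences the non-unique reads also fit is not given, so the split between miR-146a-5p and miR-146b-5p may be uncertain by these few reads. With unique reads alone the fold of miR-146a-5p was 0.521.

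**Figure D4:**
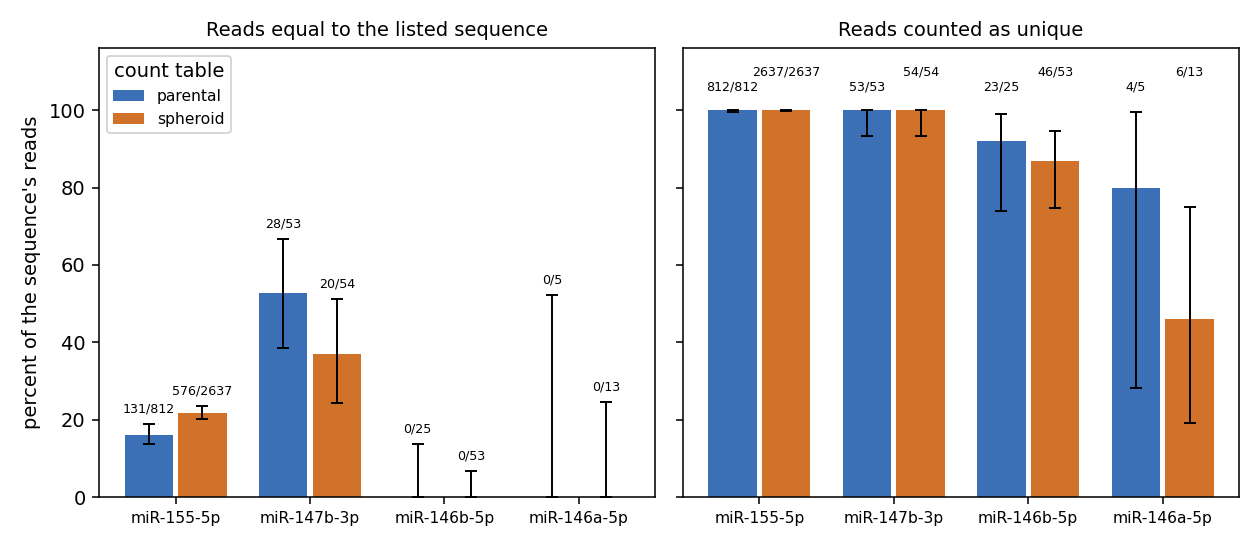
Share of each sequence's reads that equal the deposited sequence (left) and that were counted as unique (right), in percent, with the reads above each bar and exact 95% intervals for counting error. The exact share of miR-155-5p is 16.1% and 21.8%, both miR-146 sequences have no exact reads, and they are the only ones of the 4 below 100% unique.

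Of the sequences with at least 100 reads, 1 shared the shorter seed of bases 2 to 7 with miR-147b-3p. This was miR-210-3p, the hypoxia-induced miRNA of chromosome 11, shown with these bases in capitals for comparison with the seed above.
miR-210-3p: cTGTGCGtgtgacagcggctga
It had 433 parental and 3039 spheroid reads, or 802 and 1957 rpm, and was higher in spheroid cells, with a fold of 2.44 (2.21 to 2.70). The 2 sequences moved in opposite directions. There were 8.17 miR-210-3p reads per miR-147b-3p read in parental and 56.3 in spheroid cells, a ratio 6.89 (4.56 to 10.4) times higher in the latter. Of the reads counted for these 2 sequences, most were thus from miR-210-3p in both tables. Rarer sequences with this shorter seed were not summed, and the seeds of variant reads are not known.

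The sequences nearest to miR-155-5p by log2 rpm in both tables were miR-100-5p at a distance of 0.298 (1408 and 1397 rpm), miR-23b-3p at 0.305 (1849 and 1780 rpm) and miR-193b-3p at 0.428 (1686 and 2232 rpm). None of these was called. Those nearest to miR-147b-3p were miR-3613-5p at 0.385, with 62 and 67 reads, miR-3074-5p at 0.495, with 45 and 73 reads, and miR-454-3p at 0.536, with 56 and 78 reads. Of these, miR-3613-5p had a fold of 0.376 (0.262 to 0.539) and miR-454-3p of 0.484 (0.339 to 0.695), and both were called lower. miR-3074-5p, with a fold of 0.564 (0.384 to 0.837), was not called. With TMM factors, which move every log2 fold up by 0.16, miR-454-3p no longer reaches the fold threshold. The distances rest on 2 tables, and likeness in them is a description.

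Other miRNAs linked to NF-kB, Toll-like receptor or cytokine signalling were followed as a list of 28 stem-loops, of which 25 were listed with 37 sequences. Of these 37 sequences 6 were called higher and 3 lower, where 4.82% and 8.94% of all sequences were, so that the lower count is near the background. An excess in the higher count was not tested. The list was written with earlier results of these data known, and several of the higher sequences come from the same loci. The median log2 fold was -0.21 over 34 sequences, near that of all sequences. The higher ones were mainly of the miR-181 family, which tunes T cell receptor signalling. Their folds were 4.62 (4.23 to 5.04) for miR-181a-5p, 4.63 (3.51 to 6.22) for miR-181b-5p, 7.48 (5.22 to 11.1) for miR-181a-3p and 3.44 (1.73 to 7.76) for miR-181a-2-3p.

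The other higher sequences were miR-125b-2-3p, with a fold of 3.77 (2.48 to 5.98), and miR-199a-3p, with 2.26 (1.28 to 4.30). The lower ones were miR-98-5p of the let-7 family, with 0.496 (0.462 to 0.533), miR-31-3p, with 0.468 (0.370 to 0.594), and miR-222-5p, with 0.409 (0.252 to 0.666). TMM factors move every log2 fold up by 0.16, at which miR-98-5p and miR-31-3p no longer reach the fold threshold. The 3 with the most reads were not called, with folds of 0.858 for miR-21-5p, 0.921 for miR-221-3p and 0.850 for let-7i-5p. The fold of miR-147b-3p was below that of each of the 3 lower sequences of this list. Its interval (0.238 to 0.527) includes all 3 of these folds, so the order is not resolved.

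mir-155 and mir-146a are also abundant in white blood cells, so markers of these were read. Of 4 such stem-loops 3 were listed, mir-223 was not, and their summed level was 674 rpm in parental and 910 rpm in spheroid cells. Nearly all of it was miR-342-3p (349 and 1366 reads), while miR-142-3p had 2 reads in each table and mir-150 had 1 and 0. miR-142-5p, from the other arm of mir-142, had 12 and 41 reads (22.2 and 26.4 rpm), above miR-146a-5p and below miR-146b-5p in both tables. The part of such cells in the miR-155 and miR-146 levels was not tested. None of the 5 marker sequences was called, where 4.82% of all sequences were called higher and 8.94% lower. All but miR-342-3p had few reads. Its fold was 1.36 (1.21 to 1.53), with an adjusted p of 1.25e-06 by Kal's Z-test, and did not reach the fold of 2. Of the red blood cell markers mir-451a was not listed and mir-144 had 1 read in each table, whereas mir-486 had 9450 and 34829 reads. The miRNAs known to be high in MDA-MB-231 cells were all present, at a summed 260044 and 227744 rpm. Most of this was miR-21-5p, at 201714 and 173118 rpm, whereas miR-100-5p had 1408 and 1397 rpm. Of these 10 sequences 0 were called higher and 2 lower, miR-222-5p with a fold of 0.409 and miR-100-3p with 0.232. The 7 stem-loops of luminal or epithelial cells, the miR-200 family among them, summed to 119 and 159 rpm.

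**Figure D5:**
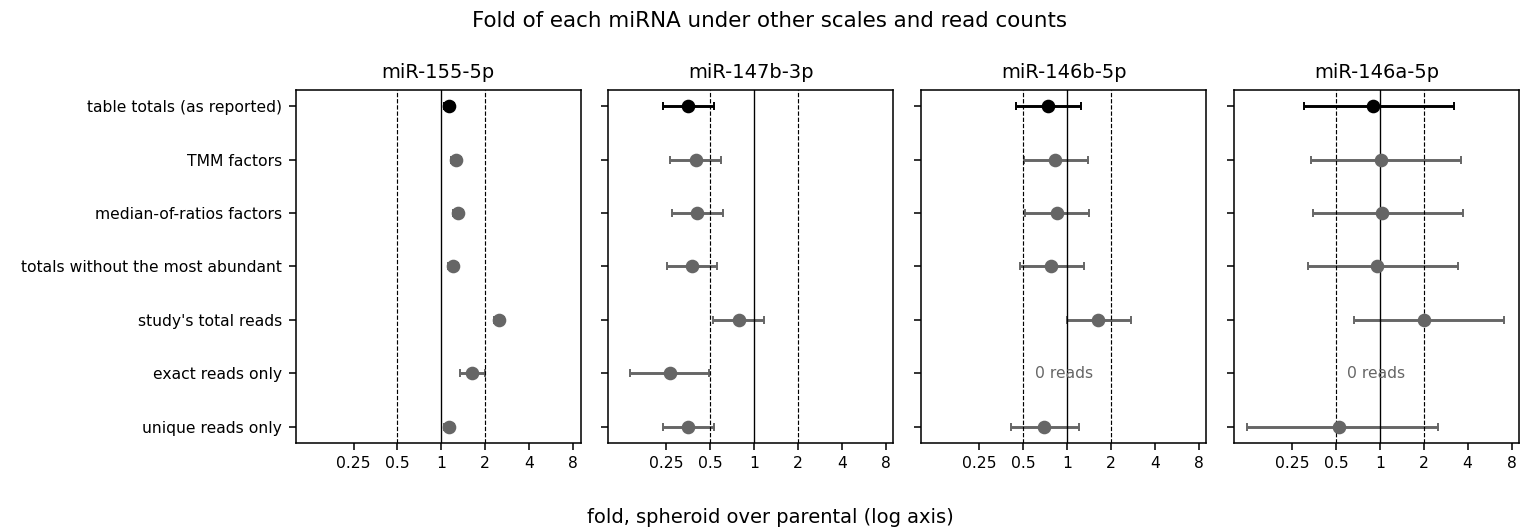
Fold of spheroid over parental (log axis) for miR-155-5p, miR-147b-3p, miR-146b-5p and miR-146a-5p with the table total as the scale and under other scales and read counts, with 95% intervals for counting error. The fold of miR-147b-3p stays below 1 in each setting, from 0.265 to 0.783, and miR-146a-5p falls on both sides of 1. With the study's total reads the interval of miR-147b-3p (0.526 to 1.17) includes 1.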

How the data were processed

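MDA-MB-231 small RNA was sequenced on an Illumina HiSeq. The authors trimmed adapters, kept reads of 17 to 27 nucleotides, and used CLC Genomics Workbench 7.0 to assign these to miRBase 19 and to noncoding RNA of Ensembl GRCh37 release 57. The deposited values are raw counts per mature sequence, variants included, in 1 table per group, beside exact and unique reads. With 0 columns per sample, edgeR's test for replicates could not be used.

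Tables were joined by sequence. Kal's Z-test, Fisher's exact test, Benjamini-Hochberg adjustment over all sequences and Clopper-Pearson or conditional exact 95% intervals were computed in Python 3.11.15 (numpy 2.4.6, pandas 2.3.3, scipy 1.17.1, matplotlib 3.10.9), and scale factors and an exact test with assumed variation in edgeR 4.0.16 (R 4.3.3). A count of 0 was given a floor of 3 reads. Loci were matched exactly to GRCh37 with GENCODE 44 annotation. Scripts were tested on simulated counts.

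Named are all sequences of the 4 stem-loops, the 3 nearest sequences (at least 100 reads each), sequences sharing bases 2 to 8 or, with at least 100 reads, 2 to 7, and, of the inflammation list, the called and the 3 most abundant. The members and lists were chosen with earlier results of these data known.

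Alternatives were TMM, median-of-ratios, totals without the 5 most abundant sequences, the study's total reads, exact or unique reads, a minimum of 10 or of 50 reads, assumed variation, Fisher's exact test, unadjusted p and a fold of 1.5.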

Additional observations from a re-analysis of the deposited data

How the results depend on the processing

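With 1 table per group, leaving out replicates was not possible. No paired analysis was possible because the tables carry no replicate columns. The study's total reads, of which the tables hold 6.40% (parental) and 14.1% (spheroid), moved every log2 fold up by 1.14, and may cover more parental reads than the table. With them 140 sequences were called higher (21 in the report) and 5 lower (39), miR-155-5p was called higher with a fold of 2.50, miR-147b-3p was 0.783 and no longer called (adjusted p = 0.312 by Kal's Z-test), and miR-146b-5p (1.63) and miR-146a-5p (2.00) turned above 1. miR-146a-5p was also above 1 with TMM (1.01) and median-of-ratios factors (1.04), which moved log2 folds by 0.16 and 0.20. Where edgeR assumed a coefficient of variation of 0.2, it called 13 higher and 8 lower, and with 0.4 it called 0 and 0. The fold of miR-147b-3p stayed 0.354 in both, with an adjusted p of 0.0604 and 1. A fold threshold of 1.5 gave 34 higher. With exact reads 24 were called lower, 8 stem-loops changed in arm ratio (18), and the ratio of miR-155-5p to miR-147b-3p rose to 6.16 (3.22 to 11.9) times. Exact reads gave no value for the miR-146 sequences, and the minimum of 50 reads dropped miR-146a-5p. Of the alternatives tried, 12 of 13 kept the direction and call of miR-155-5p, 10 of 13 of miR-147b-3p, 11 of 12 of miR-146b-5p and 8 of 11 of miR-146a-5p. The minimum reads, Fisher's exact test, assumed variation, unadjusted p and the fold of 1.5 left every fold as it was. For miR-155-5p and the miR-146 sequences these settings could not give a call, so their agreement was fixed in advance. For miR-147b-3p the minimum reads, unadjusted p and the fold of 1.5 could not remove the call, so these agreements were fixed too. At an assumed coefficient of variation of 0.2 in edgeR, the difference of miR-155-5p no longer passed the adjusted p of 0.05. Depth limits miR-146a-5p and miR-155-3p most.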
